A study of Mus musculus with 3 samples.

Results

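Cells with many transcripts of 6 hypoxia genes were compared with cells that had few or none, within each of 3 mouse gliomas. Tumour 2 held markers of other brain cell types, as given below, so its cells are called by their score and not by a cell type. The rule summed the UMIs (unique molecular identifiers, 1 per captured transcript) of Bnip3, Vegfa, Egln3, Ndrg1, Pdk1 and Ldha per 10000 UMIs in each cell. Cells were eligible when they had at least 500 genes, at most 20% mitochondrial UMIs, and low levels of 18 cycling, myelin and myeloid genes. Of 9642 cells, 2615 were eligible. The 10% of eligible cells with the highest score in each tumour (score-high) made 260 cells, 141 from tumour 1, 13 from tumour 2 and 106 from tumour 4. The 10% with the lowest score (score-low) held as many from each.

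All 3 tumours carried H3f3aK27M, PdgfraD842V and Trp53R270H, so no tumour without these alleles served as a control. Per the labels, MADR constructs, which integrate a transgene at a chosen locus, were electroporated into the brains of newborn mice heterozygous for the reporter allele Gt(ROSA)26Sortm4(ACTB-tdTomato,-EGFP), laboratory code Luo/J, on a B6.129(Cg) background. GFP-positive tumour cells were sorted and profiled with a droplet 3′ kit. Age at collection was 150 days for tumour 1, 106 for tumour 2 and 149 for tumour 4. Both score groups come from the same tumours, so genotype, age and library are shared within a pair, and each gene test compares 3 pairs. Those tests draw a gene's spread largely from all genes, so their SE and p-values do not measure agreement among the 3 tumours. The labels do not say which promoter drives the transgenes.

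Cells sense oxygen through prolyl hydroxylases that mark the HIF alpha subunits for destruction while oxygen is plentiful. When oxygen falls, HIF alpha accumulates, pairs with ARNT and binds the core letters ACGTG or GCGTG near target genes. Its targets carry glucose into lactate (Ldha, Pgk1), keep pyruvate out of mitochondria (Pdk1), remove mitochondria (Bnip3), call in vessels (Vegfa) and restrain the response itself (Egln3). Gliomas are known for hypoxic territories.

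Upstream sequences are shown for 4 genes on which the results below turn. Ldha supplied most of the score, Bnip3 was the ranking gene with the clearest change when held out, and Pgk1 and Pgam1 were glycolytic genes that rose outside the score. Each is the 250 bases before an annotated start from RefSeq on GRCm38.p6, 5′ to 3′ on the gene's strand, with capitals marking ACGTG or GCGTG on either strand. The Ldha window is chr7:46845554-46845803 on the plus strand, the first of the 2 starts listed. The Bnip3 window is chr7:138909507-138909756 on the minus strand. Pgk1 is at chrX:106186850-106187099 on the plus strand and Pgam1 at chr19:41911621-41911870 on the plus strand. The GENCODE annotation of GRCm38 places the gene bodies at chr7:46841475-46855627 (Ldha), chr7:138890836-138909519 (Bnip3), chrX:106187100-106203699 (Pgk1) and chr19:41911923-41918660 (Pgam1), all protein-coding. Of the bases shown, 13 of Bnip3 and 0 of the other genes lie in an annotated exon, and the Ldha window lies within the gene body, upstream of one of its starts.
Ldha: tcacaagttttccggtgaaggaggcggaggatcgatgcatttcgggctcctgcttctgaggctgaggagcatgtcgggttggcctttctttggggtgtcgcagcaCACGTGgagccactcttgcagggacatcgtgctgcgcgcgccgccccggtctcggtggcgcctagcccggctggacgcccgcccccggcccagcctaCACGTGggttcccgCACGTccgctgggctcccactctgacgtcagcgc
Bnip3: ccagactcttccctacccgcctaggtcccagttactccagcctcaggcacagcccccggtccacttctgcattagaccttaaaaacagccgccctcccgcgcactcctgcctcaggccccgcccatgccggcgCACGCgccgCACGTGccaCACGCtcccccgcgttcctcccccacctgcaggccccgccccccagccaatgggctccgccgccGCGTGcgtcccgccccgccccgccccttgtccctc
Pgk1: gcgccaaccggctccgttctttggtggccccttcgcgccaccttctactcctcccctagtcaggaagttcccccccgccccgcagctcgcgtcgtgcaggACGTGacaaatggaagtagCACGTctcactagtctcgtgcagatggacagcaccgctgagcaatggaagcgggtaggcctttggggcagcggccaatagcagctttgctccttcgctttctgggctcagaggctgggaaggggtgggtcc
Pgam1: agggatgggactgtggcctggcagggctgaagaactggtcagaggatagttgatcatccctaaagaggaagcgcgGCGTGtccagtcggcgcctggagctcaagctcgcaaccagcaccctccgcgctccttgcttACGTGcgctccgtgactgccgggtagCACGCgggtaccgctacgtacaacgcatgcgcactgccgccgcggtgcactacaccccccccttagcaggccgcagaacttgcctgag
The windows held 5 matches for Ldha, 5 for Bnip3, 2 for Pgk1 and 3 for Pgam1. The window of Tpi1, which has 138 bases in an annotated exon and is not shown, held 0. Among other genes not shown, the first listed window held 0 for Vegfa, Aldoa and Pkm, 1 for Egln3, Pdk1, Pfkl and Eno1, and 6 for Fam162a. Of those bases, 193 of Aldoa, 208 of Pkm, 160 of Fam162a and 53 of Pfkl lie in an annotated exon. Further listed windows, most of which overlap an exon, held 2 for Vegfa, 1 each for Aldoa and Pkm, 2 each for Eno1 and 0 for Pdk1. Where CACGTG is read from both strands, its overlapping matches count separately. Of 32851 windows of this length, 38.6% held at least 1 match, and of the 6544 tested genes with a window, 64.5% did in at least 1 of their windows. No factor binding was measured, and a match is a run of letters only. Ndrg1 is named without a sequence.

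The label was checked against the genes behind the score. The values in this paragraph were used to choose the cells and are a description. Ldha, which turns pyruvate into lactate, gave 86.3%, 70.7% and 81.6% of the score UMIs in the score-high cells of tumours 1, 2 and 4. Its level in score-high cells was 652, 498 and 1033 CPM (UMIs of the gene per 1000000 UMIs), against 8.35, 0 and 0 CPM in score-low cells. Vegfa, the vessel growth factor, had 12, 11 and 30 UMIs in score-high cells, against 0 in each score-low group. The lowest score among score-high cells was 5.73, 4.88 and 8.78 per 10000, and the next cell below had 5.70, 4.69 and 8.73. No ranking gene UMI was found in 127, 48 and 136 eligible cells, so the score-low cells of tumours 2 and 4 were all cells at 0, drawn in random order from those tied. In tumour 1 the highest score-low cell stood at 0.745 per 10000, as did the next cell above. The cells are therefore called by their score, which was led by Ldha.

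Depth moved with the score. Median UMIs per cell were 11275, 7049 and 13044.5 in score-high cells of tumours 1, 2 and 4, against 8305, 4387 and 5843 in score-low cells. The summed UMIs were 1706032, 106360 and 1482253 in score-high cells, against 1317812, 71280 and 705136 in score-low cells. Median mitochondrial shares were 4.19%, 6.56% and 4.02% in score-high cells, against 5.48%, 4.74% and 7.82% in score-low cells. Depth was higher in 3 of 3 pairs and the mitochondrial share in 1 of 3 (exact two-sided sign-flip p = 0.25 and 0.75, where 0.25 is the smallest that 3 pairs allow). A second ranking was made separately in 5 classes of total UMIs of each tumour (the depth-matched ranking). It evened out depth, with medians of 11061, 6398.5 and 8614 UMIs in score-high cells and 11159.5, 6387 and 8232 in score-low cells, and its values stand beside the results below. Tumours 1 and 2, 1 and 4, and 2 and 4 shared 6, 20 and 11 cell barcodes. Tumour 2 stood apart. Astrocyte markers summed to 4955 CPM in its score-high cells and 5570 CPM in its score-low cells, against 688 to 1132 CPM in all groups of tumours 1 and 4. Its oligodendrocyte markers summed to 4353 CPM in score-high cells and 4966 CPM in score-low cells, and its neuroblast markers to 1100 and 2652 CPM. Pdgfra and Cspg4 were at 0 in both groups of tumour 2. The part of these cells in the results was not tested, and values without tumour 2 stand beside the main counts. One barcode among the score-low cells of tumour 1 had 80.3% of its 11365 UMIs in red blood cell genes. The plot over 10 score bins shows score, depth and mitochondrial share together.

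**Figure D1:**
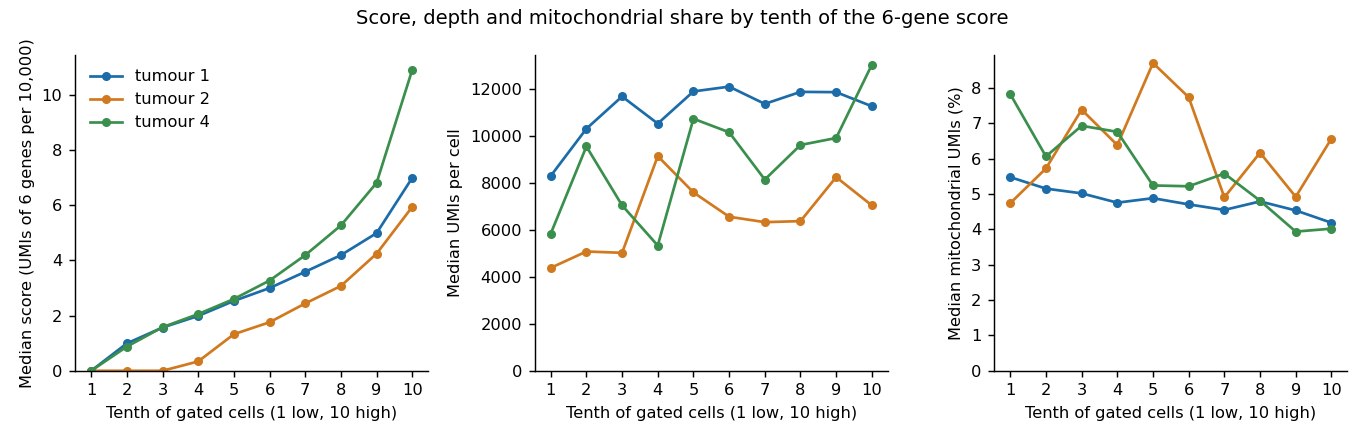
Median 6-gene score (UMIs per 10000), median UMIs per cell and median mitochondrial UMIs (%) for 10 equal bins of the eligible cells, from the lowest scores (1) to the highest (10), with a line per tumour. In tumour 4 the median depth was 5843 UMIs in bin 1 and 13044.5 in bin 10, and in tumour 1 depth lay above 10000 in every bin but the lowest.

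Holding out each ranking gene asked whether it followed the other 5. None of the 6 passed at an adjusted p of 0.05 (edgeR's quasi-likelihood test, tumour as a block, adjusted over all genes of that fit), and only Bnip3 passed in the depth-matched ranking. Vegfa and Ndrg1 had log2 fold changes slightly below 0 in cells chosen by the other genes. Over all genes, the share called was 0.865% with Bnip3 held out, 1.45% with Vegfa, 1.51% with Egln3, 1.77% with Ndrg1, 0.742% with Pdk1 and 0.187% with Ldha. At an unadjusted p under 0.05, Bnip3, Pdk1 and Ldha would have passed.

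Bnip3, a mitophagy receptor of the outer mitochondrial membrane, had 36.2, 9.53 and 98.2 CPM in score-high cells chosen without it, against 26.9, 12.5 and 24.5 CPM in score-low cells of tumours 1, 2 and 4. Tumour 4 carried the gap, tumour 1 moved slightly in the same direction, and each group of tumour 2 rested on 1 UMI. The log2 fold change was 1.09 ± 0.31 (SE; adjusted p = 0.0714) and 1.11 ± 0.25 with depth matched (adjusted p = 0.00171). Without tumour 4 it was 0.27.

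Pdk1, the kinase that shuts pyruvate dehydrogenase, had 15.9, 0 and 24.9 CPM in score-high cells, against 7.86, 0 and 5.65 CPM in score-low cells. Both tumours with any UMI had more in score-high cells. The log2 fold change was 1.38 ± 0.49 (adjusted p = 0.139), and 1.41 with an adjusted p of 0.0331 without tumour 2. Egln3, an oxygen-dependent prolyl hydroxylase, had 8.30, 9.86 and 20.6 CPM in score-high cells, against 5.45, 0 and 9.92 CPM in score-low cells. All 3 differences pointed up on 1 to 31 UMIs per score-high sum, with a log2 fold change of 0.84 ± 0.51 (adjusted p = 0.429).

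Vegfa had 4.74, 25.9 and 17.6 CPM in score-high cells chosen without it, against 6.25, 13.7 and 19.5 CPM in score-low cells. The groups overlapped, and the log2 fold change was -0.16 with a 95% interval of -1.11 to 0.80 (adjusted p = 0.913). Ndrg1, a stress-induced differentiation gene, had 7.15, 9.32 and 10.7 CPM in score-high cells, against 5.39, 27.5 and 15.2 CPM in score-low cells. Its interval ran from -1.28 to 0.78 around -0.25 (adjusted p = 0.882). These unadjusted intervals included falls of 1 on the log2 scale for both genes. Larger shifts could also miss the adjusted threshold, as held-out Pdk1 did at 1.38 ± 0.49.

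Held-out Ldha stood higher in score-high cells of tumour 4. Ranked by the other 5 genes, score-high cells had 262, 44.5 and 579 CPM, against 263, 52.3 and 219 CPM in score-low cells. Tumours 1 and 2 had slightly less in score-high cells, and whether tumours differ could not be tested with 1 pair each. The log2 fold change was 0.62 ± 0.20 (adjusted p = 0.721), and -0.07 without tumour 4.

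**Figure D2:**
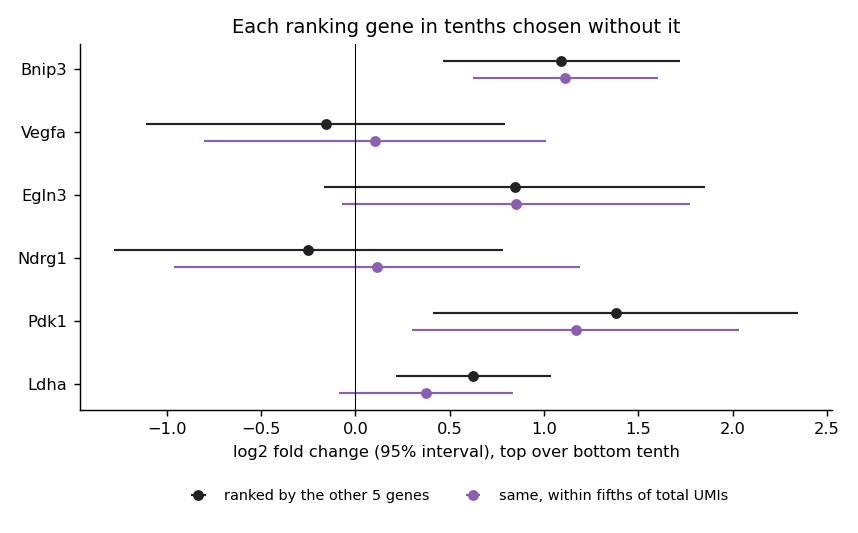
Log2 fold change, score-high over score-low, of each ranking gene in cells chosen by the other 5 genes, with 95% intervals, ranked over all eligible cells (black) and in the depth-matched ranking (purple). Bnip3 lay at 1.09 and 1.11, while the intervals of Vegfa and Ndrg1 spanned 0 on both rankings.

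Outside the ranking and gate genes, 8472 genes were tested between score-high and score-low cells. In score-high cells 7 glycolytic genes rose, while 4 immediate early genes and 3 interferon genes fell. In all, 52 genes rose (0.614% of those tested) and 60 fell (0.708%) at an adjusted p under 0.05 (edgeR, tumour as a block). Sizes of rises and falls below are log2 fold changes with SE, score-high over score-low. Their median over all genes was -0.01, and 49.3% of genes lay above 0. DESeq2 on the same sums called 0 genes higher and 1 lower, with 246 genes at an unadjusted p under 0.05 against 1217 in edgeR. Without tumour 4 edgeR called 0 genes, with 108 at an unadjusted p under 0.05. Without tumour 1 it called 3 higher and 4 lower, and without tumour 2 it called 157 higher (1.67% of 9384) and 226 lower (2.41%). The depth-matched ranking gave 132 genes higher (1.49% of 8861) and 89 lower (1.00%), and 45 of the 52 and 33 of the 60 were called there too.

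Glycolysis held the largest group of called genes among the 21 pathway lists. Of 30 members of the list for glycolysis and glucose uptake, 25 passed the filter on low counts, 7 rose and 0 fell. Their median log2 fold change was 0.24, and 18 of 25 lay above 0. With depth matched, 10 of 26 rose and the median was 0.51. DESeq2 called none (median 0.35). Without tumour 1 there was 1 call, without tumour 2 there were 9 and without tumour 4 there were 0 (medians 0.70, 0.28 and 0.23). Ldha, which led the ranking, is itself a glycolytic gene and is not in this count. Ranked without Ldha, 1 of 26 tested members rose, with 22 above 0 and a median of 0.34.

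Tpi1, which interconverts the 3-carbon sugars made when fructose bisphosphate is split, had 267, 263 and 555 CPM in score-high cells, against 158, 56.1 and 105 CPM in score-low cells. No score-low group reached any score-high group, and the log2 fold change was 1.55 ± 0.24 (edgeR adjusted p = 7.58e-07). A ranking without Ldha called 14 of 8570 genes higher (0.163%) and 3 lower (0.035%), and Tpi1 rose there by 0.99 ± 0.18 (adjusted p = 0.00534). Its upstream window held no match.

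Aldoa, the enzyme that splits fructose bisphosphate, had 646, 310 and 1208 CPM in score-high cells, against 346, 224 and 383 CPM in score-low cells. It was higher in each pair, most of all in tumour 4, with a log2 fold change of 1.11 ± 0.24 (adjusted p = 0.00240). In tumour 2, 1 cell gave 19 of the 33 UMIs in score-high cells, against 16 UMIs in all in score-low cells. Pfkl, the liver-type phosphofructokinase at the committed step, had 41.0, 0 and 77.6 CPM in score-high cells, against 18.2, 14.03 and 7.09 CPM in score-low cells. Tumour 2 went the other way on 1 UMI, and the log2 fold change was 1.83 ± 0.34 (adjusted p = 0.000109).

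Pgk1, the first step of the pathway that makes ATP, had 32.2, 18.8 and 23.6 CPM in score-high cells, against 13.7, 14.03 and 2.84 CPM in score-low cells. The groups did not overlap, although tumour 2 rested on 2 UMIs against 1, and the log2 fold change was 1.502 ± 0.42 (adjusted p = 0.0370). Pgam1, Pkm and Eno1, which act below it, rose by 1.06 ± 0.24, 0.97 ± 0.24 and 0.90 ± 0.23. All 3 were higher in tumours 1 and 4. In tumour 2, Pgam1 had 160 CPM in score-high cells and 210 CPM in score-low cells, and Pkm was level at 226 and 224 CPM. Eno1 was higher there, but 1 cell gave 21 of its 42 UMIs in score-high cells.

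Gapdh, between aldolase and Pgk1, had 958, 536 and 1626 CPM in score-high cells, against 618, 631 and 617 CPM in score-low cells, and did not pass over all cells (0.70 ± 0.24; adjusted p = 0.106) but did with depth matched (0.75 ± 0.20; adjusted p = 0.0248). Gapdh and Eno1 have near-identical copies in the mouse genome, among which reads may be split. The entry steps gave no call. Slc2a1, the glucose transporter GLUT1, had 18.2, 37.6 and 46.6 CPM in score-high cells, against 10.6, 56.1 and 24.1 CPM in score-low cells (adjusted p = 0.349). Hk2, the inducible hexokinase, stood at 0.12 ± 0.35 (adjusted p = 0.922). The lactate exporter Slc16a3 was below the filter, with 6, 0 and 21 UMIs in score-high cells, against 1, 0 and 0 in score-low cells.

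Among HIF targets, Pgk1, already counted with glycolysis, and Fam162a passed. Of 51 listed targets other than the ranking genes, 31 passed the filter, 2 rose and 0 fell, with 14 above 0 and a median of -0.01. The direction of the rest depended on the setting. In the depth-matched ranking 2 of 35 rose, with a median of 0.17. Without tumour 4, 18 of 25 lay above 0 (median 0.15), and ranked without Ldha, 24 of 33 did (median 0.25), with 0 called in either. Fam162a, a mitochondrial protein linked to hypoxic cell death, had 111, 84.6 and 325 CPM in score-high cells, against 74.4, 56.1 and 101 CPM in score-low cells. It was higher in each pair, by 1.05 ± 0.25 (edgeR adjusted p = 0.00698).

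P4ha1, a collagen prolyl hydroxylase, and Pdk3, another pyruvate dehydrogenase kinase, came nearest to passing, at 1.03 ± 0.31 (adjusted p = 0.0569) and 1.51 ± 0.46 (adjusted p = 0.0603). Several classical targets lay at 0, among them Bnip3l (0.00 ± 0.25), the mitophagy receptor related to Bnip3, and Hilpda (-0.01 ± 0.30), a lipid droplet protein. Ddit4, an mTORC1 inhibitor, stood at -0.28 ± 0.28. Adm, the vasodilator peptide, was below the filter at 10, 0 and 12 UMIs in score-high cells and 5, 1 and 8 in score-low cells. Car9, the surface carbonic anhydrase used as a hypoxia marker in human tumours, had 1, 0 and 0 UMIs in score-high cells and 1, 0 and 0 in score-low cells. A sum of 0 UMIs in tumour 4 allows up to 2.02 CPM in score-high cells and 4.25 CPM in score-low cells.

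None of the 17 tested genes for oxygen sensing and HIF subunits was called. Hif1a itself, controlled mainly through its protein, had 26.4, 47.0 and 63.4 CPM in score-high cells, against 35.7, 112 and 101 CPM in score-low cells, lower in each pair without passing (-0.66 ± 0.27; adjusted p = 0.210). None of 7 tested angiogenic genes was called, with a median of -0.26. The same held for 18 mitophagy and autophagy genes, whose median was 0.01.

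**Figure D3:**
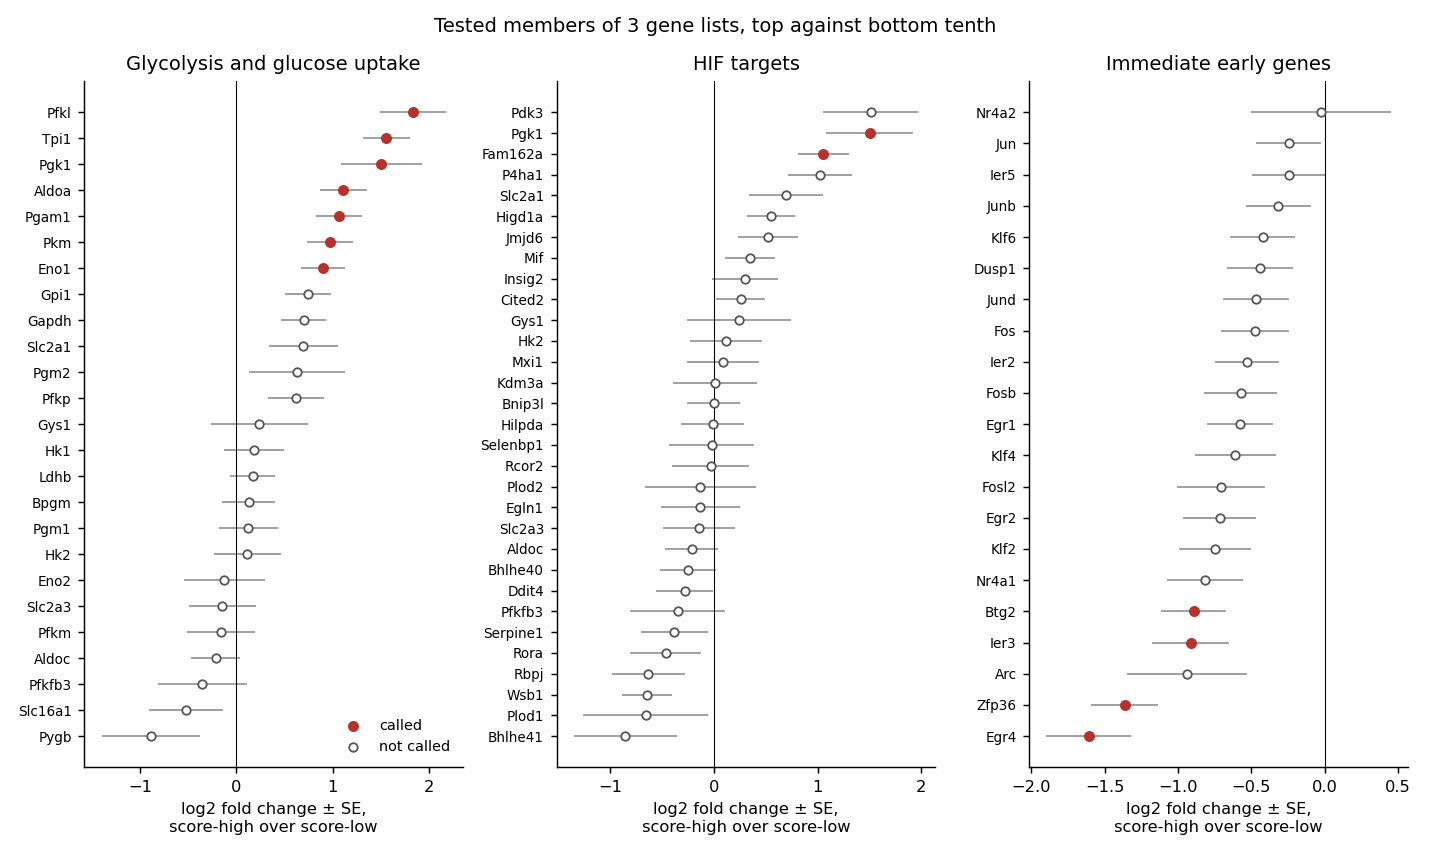
Log2 fold change, score-high over score-low, with SE, of every tested member of 3 lists (filled points passed at an adjusted p under 0.05). Glycolytic enzymes reached 1.83, HIF targets spread on both sides of 0 around a median of -0.01, and all 21 immediate early genes lay below 0.

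Few mitochondrial genes were called. Of 26 tested genes for pyruvate entry and the TCA cycle, 25 lay above 0 with a median of 0.47, and 1 rose. That gene, Mdh2, the mitochondrial malate dehydrogenase, had 412, 197 and 412 CPM in score-high cells, against 255, 112 and 186 CPM in score-low cells (0.86 ± 0.23; adjusted p = 0.0313). Of 70 nuclear genes for oxidative phosphorylation, 58 lay above 0 with a median of 0.20, and Atp5b, the catalytic subunit of ATP synthase, rose by 0.82 ± 0.23, with 432 CPM in score-high cells and 477 CPM in score-low cells of tumour 2 going the other way. Matching depth gave 3 TCA genes and 6 oxidative phosphorylation genes that rose, the second set including Uqcrc1 of complex III (0.77 ± 0.17) and Ndufa9 of complex I (0.83 ± 0.18). All 13 mitochondrially encoded genes lay below 0, with a median of -0.51 and no call. The rule had capped the mitochondrial share at 20% in every eligible cell, so it used these genes to choose the cells. Ranked without Ldha, 20 of 70 nuclear oxidative phosphorylation genes and 6 of 13 mitochondrially encoded genes lay above 0, with 0 called. No difference between these lists was tested. The mitochondrial share of UMIs differed between the groups in the same tumours, as given above, and its part in these values was not tested.

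The genes with the largest rise had varied roles, from glycan assembly to the proteasome. The named genes here and below are the 12 with the largest rise and the 12 with the largest fall among those called that moved alike in all 3 tumours and reached 20 CPM in either group. Alg3, a mannosyltransferase that builds N-glycan precursors, had 26.4, 18.8 and 30.4 CPM in score-high cells, against 7.59, 0 and 5.67 CPM in score-low cells (1.98 ± 0.45; adjusted p = 0.00550). The measured levels did not overlap, but tumour 2 rested on 2 UMIs from 1 score-high cell against 0. A sum of 0 UMIs there allows up to 42.1 CPM in score-low cells. Psmd6 and Uchl5, a subunit and a deubiquitinase of the proteasome, rose by 1.25 ± 0.27 and 1.28 ± 0.36. In tumour 2 they rested on 6 UMIs against 3 and 1 UMI against 0. Copb2, of the COPI vesicle coat, rose by 1.25 ± 0.31, with 5 UMIs against 0 in tumour 2. Ctsl, a lysosomal protease, had 144, 103 and 166 CPM in score-high cells, against 72.8, 84.2 and 44.0 CPM in score-low cells. It was higher in each pair, by 1.23 ± 0.25 (adjusted p = 0.000963).

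Rars, the arginyl-tRNA synthetase, had 60.4, 56.4 and 62.1 CPM in score-high cells, against 24.3, 28.1 and 26.9 CPM in score-low cells. Its levels were the most even across tumours of the 12 genes, and it rose by 1.19 ± 0.30 (adjusted p = 0.0140). Tumour 2 rested on 6 UMIs against 2. Smu1, a splicing factor, rose by 1.75 ± 0.44, with 3 UMIs against 1 in tumour 2. Arxes1 rose by 1.36 ± 0.27, although its near-identical neighbour Arxes2 may share its reads.

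Hspb1, a small heat shock chaperone, had 82.6, 103 and 64.8 CPM in score-high cells, against 32.6, 28.1 and 8.51 CPM in score-low cells (1.73 ± 0.30; adjusted p = 1.91e-05). Few cells carried it: 13 of 141, 1 of 13 and 7 of 106 score-high cells, of which a single cell gave 64 of 141, 11 of 11 and 36 of 96 UMIs. None of the other 13 tested heat shock genes was called. Cox6a2, a heart and muscle form of a cytochrome oxidase subunit, rose by 1.74 ± 0.51, but 14 of its 14 UMIs in score-high cells of tumour 2 came from 1 cell, and with depth matched its value was -0.40.

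**Figure D4:**
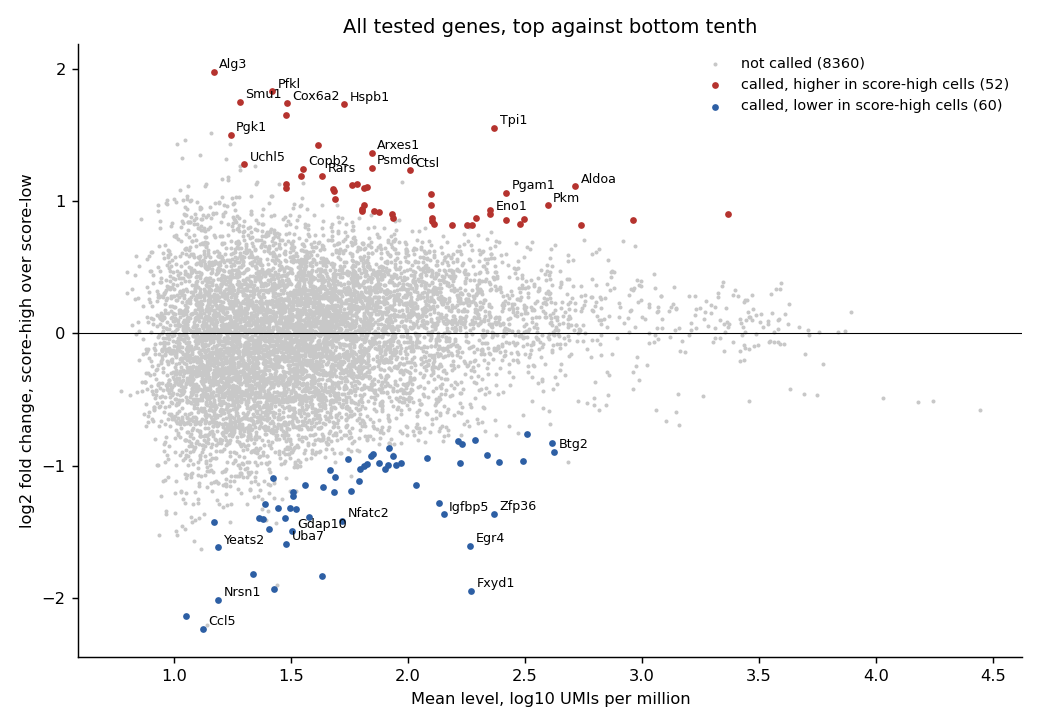
Log2 fold change, score-high over score-low, against mean level (log10 CPM) for the 8472 tested genes, with called genes in red (52 higher) and blue (60 lower). The glycolytic enzymes Aldoa, Pkm and Tpi1 lie to the right among the genes that rose.

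Immediate early genes, switched on within minutes by growth factors or activity, gave calls in 1 direction. All 21 tested members lay below 0 with a median of -0.58, and 4 fell: Zfp36, Egr4, Btg2 and Ier3. With depth matched, 19 of 21 lay below 0 with a median of -0.40, and 5 fell. DESeq2 called none (median -0.59). Without tumour 1 there was 1 call, without tumour 2 there were 5 and without tumour 4 there were 0. Ranked without Ldha, 15 of 21 lay below 0 with a median of -0.06, and 0 were called.

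Zfp36, which speeds decay of cytokine mRNAs, had 73.9, 301 and 70.2 CPM in score-high cells, against 146, 519 and 285 CPM in score-low cells. It was lower in each pair, with a log2 fold change of -1.36 ± 0.23 (adjusted p = 3.97e-06), and of -1.13 ± 0.17 with depth matched (adjusted p = 5.94e-06). Btg2, an antiproliferative gene, had 141, 564 and 176 CPM in score-high cells, against 171, 954 and 513 CPM in score-low cells (-0.89 ± 0.22; adjusted p = 0.0137). Ier3 was lower in 2 of 3 pairs (-0.91 ± 0.26; adjusted p = 0.0403). Egr4 had 8.21, 160 and 22.9 CPM in score-high cells, against 15.9, 842 and 58.1 CPM in score-low cells (-1.61 ± 0.29), and 1 cell gave 35 of the 60 UMIs in score-low cells of tumour 2. The best known members did not pass: Fos, a component of the AP-1 factor, had 671, 2745 and 1220 CPM in score-high cells, against 815, 3367 and 2132 CPM in score-low cells (adjusted p = 0.325).

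Stress and interferon genes gave scattered calls. Of 26 genes of the ATF4 integrated stress response, Phgdh, the first enzyme of serine synthesis, rose by 0.88 ± 0.24. Atf3, a stress transcription factor, and Ppp1r15a, which restarts translation, fell by 0.81 and 1.00 on the log2 scale. Among 24 genes of the interferon response and MHC class I, Rsad2, Stat2 and Irf7 fell, with values of -1.12 ± 0.29, -1.15 ± 0.30 and -0.81 ± 0.23, and 0 rose. Irf7 went the other way in tumour 2, with 33 of 106360 UMIs in score-high cells against 15 of 71280 in score-low cells. Rsad2, an antiviral enzyme, had 20.5, 84.6 and 30.4 CPM in score-high cells, against 24.3, 98.2 and 115 CPM in score-low cells. The gap stood in tumour 4. The list median was -0.14, and 0.08 with depth matched, where 2 fell. Without tumour 4 it was 0.18 with 0 called. Ranked without Ldha it was 0.05, with 17 of 24 above 0 and 0 called. Outside the lists, Uba7, which activates ISG15 for conjugation to proteins, and Adar, the RNA-editing deaminase, fell by 1.59 and 1.40. In tumour 2 they rested on 5 UMIs in score-high cells against 4, and on 1 UMI against 2. None of 19 endoplasmic reticulum stress genes or 12 p53 targets was called.

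Several of the largest falls rested on few cells. Ccl5, a chemokine, had 6.45, 0 and 3.37 CPM in score-high cells, against 29.6, 28.1 and 12.8 CPM in score-low cells (-2.24 ± 0.49; adjusted p = 0.00259), and 1 cell gave 19 of 39 UMIs in score-low cells of tumour 1. T and NK cells are a known source of Ccl5, and 9 markers of those cells summed to 2.34, 0 and 0.675 CPM in score-high cells, against 34.9, 14.03 and 0 CPM in score-low cells. Of these, Cd3g had 1 UMI in score-high cells and 15 in score-low cells of tumour 1, and Nkg7 had 0 and 14. Their part in the fall was not tested. After cells were thinned to 2000 UMIs before ranking, the value of Ccl5 was 0.075. Fxyd1, a regulator of the sodium pump, had 13.5, 103 and 15.5 CPM in score-high cells, against 36.4, 912 and 41.1 CPM in score-low cells (-1.95 ± 0.29; adjusted p = 9.73e-08), and 1 cell gave 41 of 65 UMIs in score-low cells of tumour 2. Igfbp5, a secreted binder of insulin-like growth factors, fell by 1.37, with 36 of 48 such UMIs in 1 cell. The same score-low cells of tumour 2 held the ependymal transcripts given below, whose part in these falls was not tested. Nrsn1, a neuronal vesicle protein, fell by 2.01, and Yeats2, a reader of histone acylation, by 1.62. In tumour 2 they rested on 2 UMIs in score-high cells against 3, and on 1 UMI against 1. The lower CPM of Yeats2 there came only from the larger summed UMIs of the score-high cells. Nfatc2, a calcium-regulated transcription factor, had 19.9, 47.0 and 20.2 CPM in score-high cells, against 33.4, 112 and 82.3 CPM in score-low cells. It was lower in each pair (-1.42 ± 0.30; adjusted p = 0.00131), but 1 cell gave 7 of 8 UMIs in score-low cells of tumour 2. Gdap10 and Mllt6 fell by 1.497 and 1.40. In tumour 2 they rested on 2 UMIs in score-high cells against 6, and on 3 UMIs against 3.

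Mesenchymal and matrix genes showed 2 rises and 1 fall among 21 tested, with a median of 0.32. Timp1, an inhibitor of matrix metalloproteinases, had 203, 56.4 and 254 CPM in score-high cells, against 115, 14.03 and 112 CPM in score-low cells. It was higher in each pair (0.97 ± 0.24; adjusted p = 0.0140). Spp1, or osteopontin, rose by 1.12 ± 0.29, but 1 cell gave 72 of 102 UMIs in score-high cells of tumour 4. In tumour 2, 1 cell gave 13 of its 16 UMIs in score-high cells, against 0 UMIs in score-low cells. Tumour 1 was near level, with 106 Spp1 UMIs of 1706032 in score-high cells and 80 of 1317812 in score-low cells. The fall was that of Igfbp5. The depth-matched ranking gave 5 of 20 higher and 1 lower. Without tumour 4, 0 of 19 were called and the median was -0.07.

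Histone demethylases of the JmjC type need oxygen, and the tumours carry the K27M histone. None of 13 tested lysine demethylases was called, although 12 lay below 0 with a median of -0.29. Kdm6a and Kdm6b, which remove methyl groups from lysine 27 of histone H3, stood at -1.12 ± 0.39 (adjusted p = 0.121) and -0.68 ± 0.23 (adjusted p = 0.0986). None of 8 PRC2 subunits was called, and Ezh2, the methyltransferase, stood at -0.02 ± 0.29. The genes that carry the engineered alleles did not pass either. H3f3a stood at -0.06 ± 0.23, Trp53 at -0.07 ± 0.25 and Pdgfra at -0.20 ± 0.26, and a 3′ count does not tell mutant from endogenous transcripts. Pdgfra was at 0 UMIs in both groups of tumour 2. No call was made among 18 cholesterol synthesis genes, 18 cycling genes outside the gate or 40 ribosomal protein genes.

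Lineage markers were compared because the gate does not define a cell type. Among oligodendrocyte precursor (OPC) markers, 1 of 12 was called: Cspg4, or NG2, had 22.9, 0 and 26.99 CPM in score-high cells, against 34.1, 0 and 75.2 CPM in score-low cells (-1.09 ± 0.31; adjusted p = 0.0370). Of 6 tested markers of committed precursors, Neu4 and Tcf7l2 fell, by 1.93 and 1.03, each in 2 of 3 pairs. The summed OPC markers were 2652, 2548 and 3184 CPM in score-high cells, against 2714, 1712 and 3950 CPM in score-low cells. Olig2, Olig1 and Sox10 were detected in every sum, while Pdgfra and Cspg4 were at 0 in both groups of tumour 2.

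None of the tested markers of oligodendrocytes (9), astrocytes (11), neurons (8), neuroblasts (3), microglia (2), macrophages (6), endothelium (2) or mural cells (1) was called. Astrocyte markers lay below 0 in 10 of 11 cases with a median of -0.42, and above 0 in 8 of 9 with depth matched, where the median was 0.44, so that list gave no stable direction. Ependymal markers summed to 28.2 CPM in score-high cells and 786 CPM in score-low cells of tumour 2, and to under 5 CPM in all groups of the other tumours. Red blood cell genes summed to 19.3 CPM in score-high cells and 6940 CPM in score-low cells of tumour 1, mostly in the barcode named above. Endothelial markers ranged from 18.8 to 54.0 CPM in score-high cells and from 28.1 to 65.3 CPM in score-low cells, and T or NK cell markers from 0 to 2.34 CPM and from 0 to 34.9 CPM. Without cells rich in vascular, T or NK or red cell markers, 30 genes rose and 47 fell, and 61 of the 112 calls were shared. 

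The change over the score was steepest at the top for some genes. Tpi1 in tumour 4 was at 105 CPM in the lowest of the 10 score bins, 184 in bin 5, 361 in bin 9 and 555 in the highest, whereas in tumour 1 it lay between 131 and 209 CPM over bins 1 to 9 and at 267 in the highest. Zfp36 in tumour 4 ran from 285 CPM in the lowest bin to 70.2 in the highest, and in tumour 2, with 13 or 14 cells a bin, it peaked at 786 in bin 8. Among 2863 genes of at least 50 CPM, those whose level rose most steadily with the bins in all 3 tumours were Cct5, Eif3g, Fkbp3, Stub1 and Mrpl21. Genes that fell over the bins were not sought. Cct5, a subunit of the chaperonin that folds actin and tubulin, had Spearman correlations over the 10 bins of 0.96, 0.84 and 0.93, a description over bins that share library and depth trend. Its level was 491, 291 and 381 CPM in the highest bin, against 351, 112 and 174 CPM in the lowest.

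**Figure D5:**
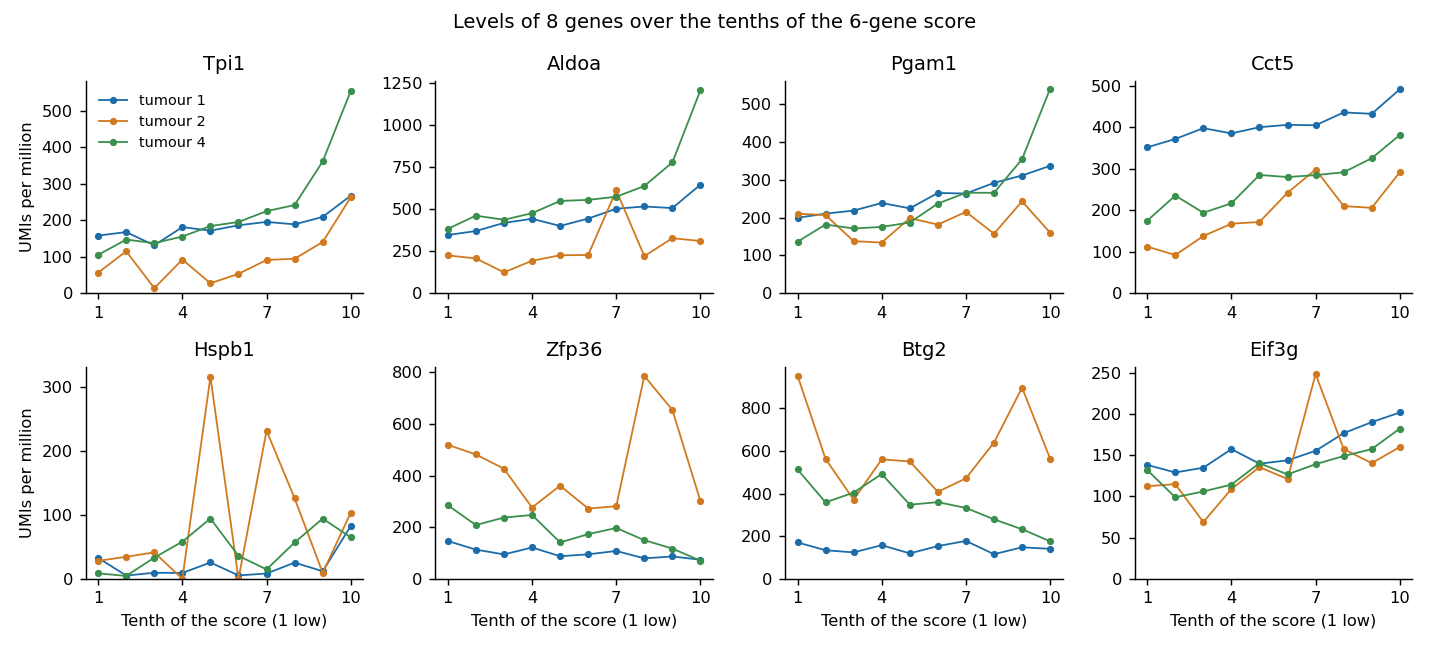
Level (CPM) of 8 genes in each of 10 bins of the 6-gene score, from the lowest (1) to the highest (10), with a line per tumour. Tpi1, Aldoa and Pgam1 climbed steeply at the top in tumour 4, Zfp36 declined in tumours 1 and 4, and Hspb1 followed no order over the bins.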

How the data were processed

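Per the labels, the 3 samples are single-cell libraries of sorted GFP-positive cells, 1 per tumour. For each gene (27999 entries) and barcode the authors deposited a whole-number UMI count, beside normalised values left unused here. The submitters' processing notes name STAR 2.5.1, Cell Ranger 1.3.0 and build mm10. The sources used here do not say how barcodes and doublets were filtered, and no doublet caller was run. Eligible cells had under 3 UMIs per 10000 of 6 cycling genes, under 3 of 6 myelin genes and under 15 of 6 myeloid genes, leaving 1412, 137 and 1066 cells.

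Counts were summed per tumour and group without the 24 ranking and gate genes. They were filtered with filterByExpr, scaled by TMM and tested in edgeR 4.0.16 (R 4.3.3) by the quasi-likelihood test with tumour as a block, Benjamini-Hochberg adjusted over all genes tested. Groups pair because both come from 1 animal. SE is the absolute log2 fold change over the root of F, with a spread drawn largely from all genes. For the held-out fits, the gene in question was kept whatever its count. DESeq2 1.42.0 was an alternative. The scripts were checked on simulated counts. Floors are 3 counts, and intervals are at 95%. Members and lists, and the 13 marker lists, were chosen with earlier results of these data known. Promoters come from RefSeq (GRCm38.p6). Alternatives covered scaling, filter, tool, block, tumours left out, depth, ranking genes, group size, cell quality, lineage, other cells and tie order.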

Additional observations from a re-analysis of the deposited data

How the results depend on the processing

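Only 3 pairs were available and tumour 2 gave 13 cells a group. Counts of calls moved widely between settings, no call was left without tumour 4 or without pairing, and DESeq2 kept 1. Direction was followed in 35 genes (the 24 with the largest changes and the other called members of the glycolysis, immediate early, interferon and HIF target lists). Of 712 values under the alternatives, 691 kept their direction and 21 turned. Those that turned included 8 when ranked without Ldha and 11 when ranked without Ldha with depth matched. The 24 genes were chosen for large changes alike in all 3 tumours, and most settings reuse many of the same cells. Settings chosen after seeing the data are included, so the count of kept directions is no test of these changes. Of those 691, 345 still passed and 346 no longer did. Of the 111 calls tested there, 78 kept their direction when ranked without Ldha and 62 when ranked without Ldha with depth matched. Leaving out each tumour in turn gave 0 to 157 genes higher and 0 to 226 lower. With no replicate block, 0 genes were higher and 0 lower (edgeR; 129 at an unadjusted p under 0.05), against 52 and 60 with the tumour block. DESeq2 gave 0 higher and 1 lower. The other counts, given as higher and lower, were as follows. Thinning to 2000 UMIs before ranking gave 4 and 8, ranking with depth matched 132 and 89, and another tie order 67 and 95. Ranking without Ldha gave 14 and 3, the scaled mean of 6 genes 11 and 7, groups of 20% of cells 41 and 20, and groups of 5% 31 and 48. At most 10% mitochondrial UMIs gave 101 and 79, a UMI of Olig1, Olig2, Sox10 or Pdgfra 15 and 17, no filter 57 and 30, and leaving out vascular, T or NK and red cells 30 and 47.

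Settings chosen after seeing the data gave 199 and 82 (other cells left out, depth matched), 120 and 147 (Ldha alone) and 3 and 0 (without Ldha, depth matched; edgeR, 336 genes at an unadjusted p under 0.05). The scaling by DESeq2 size factors gave 42 and 58 and at least 5000 UMIs per cell 55 and 66. The causes were not tested.

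Leaving out each tumour, held-out Bnip3 ranged from 0.27 to 1.78, Pdk1 from 0.88 to 2.07, Ndrg1 from -0.63 to 0.036 and Ldha from -0.068 to 1.21. With depth matched, held-out Bnip3 was 1.11, now past the threshold, while Vegfa turned to 0.10 and Ndrg1 to 0.12. Cox6a2 turned to -0.40 with depth matched and Ccl5 to 0.075 after thinning. Ranked without Ldha, these genes turned: Yeats2 0.015, Uba7 0.27, Adar 0.47, Mllt6 0.24, Igfbp5 0.10, Btg2 0.059, Irf7 0.051 and Ier3 0.10. Without Ldha and with depth matched, Smu1 was -0.24, Arxes1 -0.27, Uchl5 -0.19, Psmd6 -0.052, Copb2 -0.012, Uba7 0.34, Gdap10 0.14, Mllt6 0.51, Igfbp5 0.045, Btg2 0.21 and Rsad2 0.35.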

Other observations

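Ranking the same cells by the 5 genes other than Ldha picked out a different set of genes, described here with genes chosen after their values were seen. Of 8570 genes, 14 rose (0.163%) and 3 fell (0.035%) in cells high for those 5 genes, and 4 of these 17 were among the 112 calls of the full score. Hspb1 rose most, by 4.34 ± 0.28 (edgeR adjusted p = 6.39e-13), with 81.6, 134 and 318 CPM in score-high cells, against 6.93, 26.2 and 7.14 CPM in score-low cells. Single cells gave 64 of 117, 11 of 12 and 116 of 336 of its UMIs in score-high cells. Igfbp2, a binder of insulin-like growth factors, rose by 1.78 ± 0.31, with 52.3, 312 and 5.69 CPM in score-high cells, against 15.1, 105 and 0 CPM in score-low cells, and 1 cell gave 25 of the 28 UMIs in score-high cells of tumour 2. Slc1a3, the astrocyte glutamate transporter, rose by 0.84 ± 0.17, and 9 of 10 tested astrocyte markers lay above 0 with a median of 0.79. Sparc and Sparcl1, matricellular proteins, rose by 0.90 ± 0.19 and 1.28 ± 0.23, and 1 cell gave 100 of 266 Sparc UMIs in score-high cells of tumour 1 and 16 of 23 in those of tumour 2. Ly6c1, an endothelial marker, rose by 1.73 ± 0.32 (adjusted p = 0.00534), with 63 of 140 UMIs from 1 score-high cell of tumour 1. It was 1 of 2 tested endothelial markers (median 0.84), and Cd74 was 1 of 6 tested macrophage markers (median 0.49) to be called. The part of such cells was not tested. Cd74, the MHC class II invariant chain, had 87.2, 212 and 115 CPM in score-high cells, against 23.9, 39.2 and 88.1 CPM in score-low cells, with 48 of 125 UMIs of tumour 1 from 1 score-high cell. In this ranking 24 of 33 tested HIF targets lay above 0 (median 0.25) with 0 called, and 8 of 9 angiogenic genes did (median 0.32) with 1 called, Sparc. Of 26 tested glycolytic genes 1 rose (Tpi1), and none of 21 immediate early genes was called (median -0.06). The fall of Hbb-bs lay in tumour 1, at 11.2 CPM in score-high cells and 2564 CPM in score-low cells, with 4054 of 4071 UMIs from 1 score-low cell. Single score-low cells also gave 91 of 100 UMIs of Ccl5 in tumour 1 and 478 of 647 UMIs of Dcaf17 in tumour 4, the other genes that fell.

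With depth matched, the full score also separated genes that were not called over all cells. Igfbp2 had 31.2, 519 and 35.8 CPM in score-high cells, against 6.62, 73.7 and 3.63 CPM in score-low cells (2.61 ± 0.33; edgeR adjusted p = 4.7e-08), and 1 cell gave 20 of 42 UMIs in score-high cells of tumour 2 and 35 of 42 in those of tumour 4. Gpr17, a receptor of committed oligodendrocyte precursors, had 10.8, 37.1 and 42.7 CPM in score-high cells, against 28.9, 545 and 67.1 CPM in score-low cells (-1.36 ± 0.26; adjusted p = 0.000366), and 1 of 10 score-low cells of tumour 2 gave 20 of 37 UMIs.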
